A study of Saccharomyces cerevisiae with 7 samples.

Results

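Mirror images of annotated introns are pairs of a 5' splice site and a branch point on the strand opposite an annotated intron, with the ends swapped. A pair was counted as one when its 5' splice site lay within 10 nt of the annotated branch point and its branch point within 10 nt of the annotated 5' splice site, on the same chromosome. By this rule 4352 of the 174421 pairs in the deposited table were mirror images, which is 2.495% of the pairs. They held 724112 of 12501667 reads, or 5.79%. At least 1 mirror-image read was found for 268 of the 280 annotated introns.

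Lariat sequencing was applied to whole cells of Saccharomyces cerevisiae grown in rich medium. The strains carried prp8-V1860N, prp8-V1860D, prp8-N1869D or prp8-V1870N, each a single change in Prp8, against PRP8-WT. In all 5 strains the chromosomal PRP8 was replaced by LYS2, the allele under study was supplied on the plasmid pRS313, and DBR1 was deleted with a Kan marker. There was 1 library per strain, except that prp8-N1869D had a second sample in 2 technical libraries. Their reads were added up here and stand for 1 sample. The labels do not say whether any strain is more than 1 clone. All strains but prp8-N1869D have a single library, so no test between strains was made, and spread between samples could be judged only from the pair of prp8-N1869D samples. The libraries held 2288752 reads for prp8-V1860N, 2174942 for prp8-V1860D, 1222720 and 1366461 for the first and second sample of prp8-N1869D, 1931509 for prp8-V1870N and 3517283 for PRP8-WT.

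In branching, the first chemical step of splicing, the 5' end of an intron is joined to the branch point adenosine and the intron becomes a lariat. Dbr1 is the enzyme that opens lariats, so that a strain without it keeps excised introns as circles with a tail. Prp8 lies at the core of the spliceosome, and yeast introns usually begin with GT and carry the branch site TACTAAC. A mirror image, as it is listed, would be a lariat of an antisense RNA. How a read was given its strand is not stated in the labels or file headers. Whether mirror-image reads come from RNA of the opposite strand or from annotated lariats listed on the wrong strand was not tested, and every level below is a level of listed reads.

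The ends of 6 introns are shown on the mirror strand, to let the highest and the lowest introns be compared base by base. On the branch side the capitals are the complement of the last 3 exon bases, and the base just before them is the complement of the first intron base. On the 5' splice site side the capitals are the complement of the annotated branch point adenosine and of both bases before it in the intron. All sequences run 5' to 3' and come from the reference of build R64. EPT1 and HNT2 are among the introns with the most mirror-image reads for their annotated reads, RPS23A and snR17a hold the most mirror-image reads, and the first intron of RPL7B and the intron of CIN2 had almost none or none.
EPT1, branch side, chrVIII:354857-354873, minus strand: ttcacatacTTAtatga
EPT1, 5' splice site side, chrVIII:354915-354931, minus strand: gttgaaagTTAgtaaca
HNT2, branch side, chrIV:1073393-1073409, plus strand: agtgcatacATAgaaaa
HNT2, 5' splice site side, chrIV:1073341-1073357, plus strand: ccatatagTTAgtaacg
RPS23A, branch side, chrVII:727031-727047, minus strand: tcaacatacTTGtttct
RPS23A, 5' splice site side, chrVII:727327-727343, minus strand: aaaaactgTTAgtaaaa
snR17a, branch side, chrXV:780113-780129, minus strand: attacatacTGAagtac
snR17a, 5' splice site side, chrXV:780257-780273, minus strand: agaatgtgTTAgtcaaa
RPL7B intron 1, branch side, chrXVI:173155-173171, minus strand: ttgacatacTCAgtgga
RPL7B intron 1, 5' splice site side, chrXVI:173541-173557, minus strand: aaaaaatgTTAgcaaag
CIN2, branch side, chrXVI:96225-96241, plus strand: tcaacatacCCTttatc
CIN2, 5' splice site side, chrXVI:96181-96197, plus strand: atgcaatgTTAattagt

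The level of mirror images was expressed as mirror-image reads per 100 annotated reads. Summed over introns, it was 7.46 in the first and 7.39 in the second sample of prp8-N1869D, 6.81 in prp8-V1860N, 6.98 in prp8-V1870N, 6.76 in prp8-V1860D and 6.66 in PRP8-WT. All libraries thus lay within a narrow range, and every mutant sample lay above PRP8-WT by a small amount. The fold over PRP8-WT was 1.12 and 1.11 for the prp8-N1869D samples, 1.05 for prp8-V1870N, 1.02 for prp8-V1860N and 1.01 for prp8-V1860D. The technical libraries of 1 RNA sample differed by 1.08-fold, at 7.69 in technical library 2 and 7.12 in technical library 1, so that the folds of all strains but prp8-N1869D were smaller than a technical difference. Both prp8-N1869D samples lay above the other strains, and they differed from each other by 0.991-fold, second over first. As a percentage of mirror-image plus annotated reads, mirror images made up 6.94% (exact 95% interval 6.89 to 6.99) in the first and 6.88% (6.84 to 6.93) in the second sample of prp8-N1869D, and 6.25% (6.22 to 6.27) in PRP8-WT. The reads carry no molecular identifiers, so intervals and detection limits cover counting error only. As bulk RNA was sequenced, more cells giving mirror-image reads and more such reads per cell cannot be told apart. With all lariat reads of a library as the denominator, the level in prp8-V1860D and prp8-V1870N was lower than in PRP8-WT, at 0.994-fold and 0.972-fold. The prp8-N1869D samples were then 1.05-fold and 1.04-fold over PRP8-WT, less than the 1.06-fold between the technical libraries. Without the 5 introns with the most mirror-image reads they were 1.07-fold and 1.06-fold over PRP8-WT, and the technical libraries 1.05-fold apart.

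**Figure D1:**
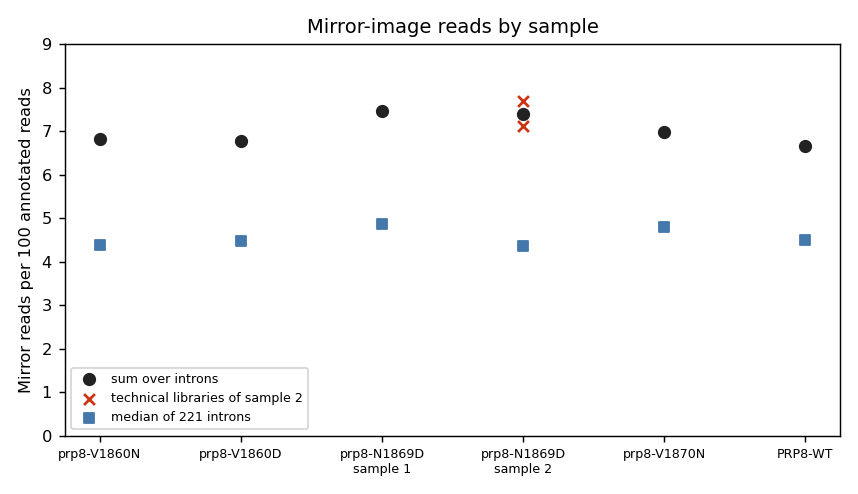
Mirror-image reads per 100 annotated reads in 4 mutants and PRP8-WT. Circles give the sum over 280 introns, crosses the 2 technical libraries and squares the median of the 221 introns that had 100 or more annotated reads per library. The sums lie between 6.66 in PRP8-WT and 7.46 in the first prp8-N1869D sample, and the technical libraries span 7.12 to 7.69.

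Some mirror images recurred from library to library. A total of 978 of the 4352 pairs were found in all 7 libraries. Of the 4352 pairs, 28.3% were seen with 1 read in all, compared with 69.0% of the pairs of the whole table. Pairs were not matched for the reads of their intron in this comparison. Mirror images were found for 255 and 252 introns in the prp8-N1869D samples, 253 in prp8-V1870N, 250 in prp8-V1860D, 248 in prp8-V1860N and 257 in PRP8-WT. None of the 4352 pairs also matched an annotated intron on its own strand. Only 1 of the 280 introns, in the alpha-tubulin gene TUB3, had an annotated gene on the opposite strand, and its level was 8.27 per 100. The median intron had 15 different mirror-image pairs, and snR17a had the most with 57.

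Most mirror-image reads fell on a few exact offsets from the swapped ends. Offsets are counted 5' to 3' on the mirror strand, with 0 at the annotated branch point for the mirror 5' splice site and 0 at the annotated 5' splice site for the mirror branch point. Only 4419 reads, or 0.610%, had both ends at 0. The mirror 5' splice site lay at +3 in 402038 reads (55.5%) and at 0 in 294083 reads (40.6%), with 1.66% at +2 and 1.07% at -1. The mirror branch point lay at +1, the last exon base, in 68.8% of the reads, at +3 in 14.8% and at +2 in 10.99%. The pair with a 5' splice site at 0 and a branch point at +1 held 279014 reads (38.5%) in 244 introns. With a 5' splice site at +3, a branch point at +1 held 200047 reads (27.6%) in 242 introns, one at +3 held 104139 reads (14.4%) in 246 introns, and one at +2 held 70956 reads (9.80%) in 247 introns. The +3 5' splice site held 57.1% and 55.3% of mirror-image reads in the prp8-N1869D samples, 55.4% in prp8-V1860N, 55.2% in prp8-V1870N, 54.2% in prp8-V1860D and 56.1% in PRP8-WT. Branch points at +3 held 16.95% and 16.8% in the prp8-N1869D samples, between 13.8% and 15.3% in the other mutants and 13.7% in PRP8-WT. Samples differ in which introns supply the reads, and these shares were not adjusted for that. Branch points at 0 differed between the prp8-N1869D samples, with 0.579% in the second and 0.970% in the first.

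**Figure D2:**
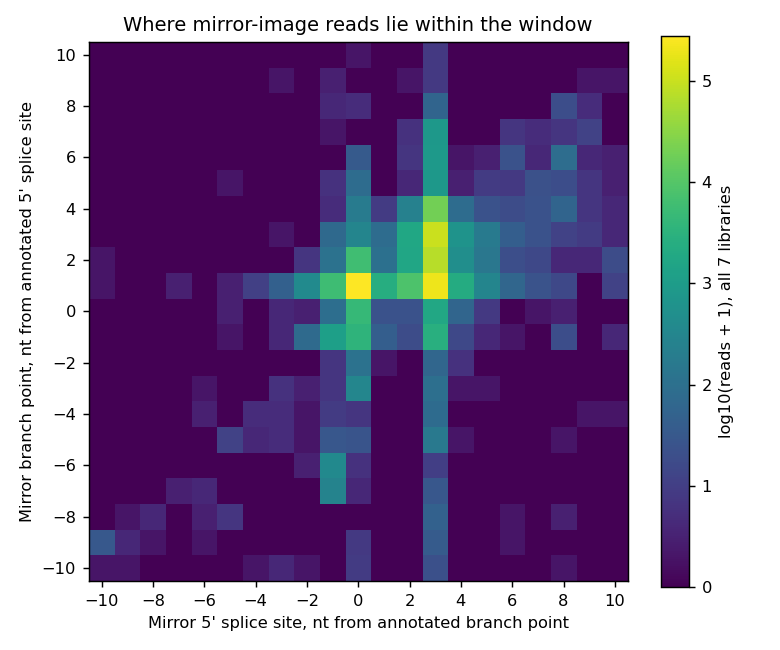
Reads of all 7 libraries by the distance of the mirror 5' splice site from the annotated branch point (x axis, nt) and of the mirror branch point from the annotated 5' splice site (y axis, nt), coloured by log10 of reads + 1. The brightest cells are at 0 and +1 with 279014 reads, at +3 and +1 with 200047 and at +3 and +3 with 104139, and the column at +3 is filled over most of the window.

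The first 2 bases of the mirror intron were GT in 56.7% and TT in 40.6% of mirror-image reads. Same-strand pairs within 10 nt of both ends of an annotated intron began with GT in 98.8% of reads, and all other pairs of the table in 86.3%. The GT at +3 is the complement of the AC that lies 4 and 3 nt before the annotated branch point, inside the TACTAAC box. The mirror branch point was T in 55.9%, A in 24.9%, C in 13.8% and G in 5.46% of reads. Of the 280 annotated branch points 279 were A, but this counts annotated positions and not listed reads. Shares of bases at the listed branch points of same-strand reads are not given here. Listed branch points also varied in position on the annotated strand, and the cause was not tested. Of the annotated-strand reads at the annotated 5' splice site, 47.2% were listed with a branch point at -1, 42.6% at 0 and 8.75% at -2.

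The window of 10 nt covered the bulk of the mirror-image reads. Pairs whose larger offset was 10 nt, just inside the rule, numbered 44 with 120 reads, and pairs at 11 nt, just outside, numbered 60 with 122 reads. At 14 nt there were 5961 reads, of which 5586 belonged to 1 pair at the intron of RPL40B, a ubiquitin and ribosomal protein fusion gene.

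Mirror-image reads were more concentrated in a few introns than annotated reads were. The 10 introns with the most mirror-image reads held 41.6% of them, whereas the 10 introns with the most annotated reads held 26.3% of annotated reads. The intron of snR17a, a gene of the U3 small nucleolar RNA, had 95099 mirror-image reads for 594634 annotated reads, or 16.0 per 100. RPS23A, a small-subunit ribosomal protein gene, had 55223 for 201167, or 27.5 per 100. The others of the 10 were RPL29 (25703 mirror-image reads), RPS30B (24265), snR17b (19195), RPS26A (16949), HNT2 (16655), RPS26B (16226), RPL17B (16176) and PRE3 (15981). Of the 10 introns, 6 are in ribosomal protein genes, and PRE3 encodes a catalytic subunit of the proteasome. Among the 227 introns with at least 1000 annotated reads, 101 are in ribosomal protein genes. These held 429193 of 722791 mirror-image reads and 6727642 of 10469061 annotated reads. Most annotated reads were thus theirs too, and the count of 6 does not set them apart.

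Among the 227 introns with at least 1000 annotated reads over all libraries, the median was 4.53 per 100 and the range 0 to 297. Across these introns mirror-image and annotated reads went together, with a Spearman correlation of 0.800 on log counts as a description over introns that share libraries. The level per 100 showed almost no relation to the number of annotated reads (Spearman -0.074) or to the distance between 5' splice site and branch point (-0.037). It was 4.61 in the median over 101 ribosomal protein introns and 4.25 over 126 others. Introns that host small nucleolar RNAs had a median of 2.43 over 9 introns, and genes with 2 introns had 8.03 over 11.

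**Figure D3:**
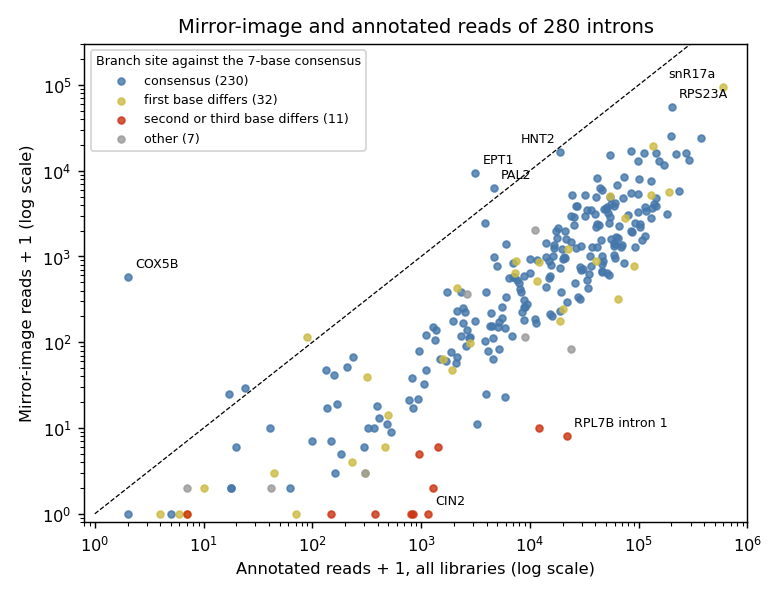
Mirror-image reads (y axis) against annotated reads (x axis) of 280 introns over all libraries, both as reads + 1 on log scales, with the line of equal counts dashed and introns coloured by how the 7-base branch site differs from the yeast consensus. Most introns lie in a band near 4.53 mirror-image reads per 100, EPT1 and PAL2 lie above the line of equal counts, and the 11 introns whose branch site differs at base 2 or 3 lie at or near the bottom.

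Of the 227 introns with at least 1000 annotated reads, 2 had more mirror-image than annotated reads. EPT1 encodes the phosphotransferase that makes phosphatidylethanolamine. Its intron had 1526 mirror-image and 576 annotated reads in prp8-V1860N, 963 and 385 in prp8-V1860D, 1441 and 481 in the first and 2613 and 634 in the second sample of prp8-N1869D, 1435 and 509 in prp8-V1870N, and 1368 and 566 in PRP8-WT. Mirror images of EPT1 outnumbered annotated reads in every sample, at 412 and 300 per 100 in the second and first prp8-N1869D sample, 250 in prp8-V1860D, 265 in prp8-V1860N, 282 in prp8-V1870N and 242 in PRP8-WT. The intron of PAL2 gave 178 per 100 in prp8-V1860D, 163 in prp8-V1860N, 145 in prp8-V1870N, 144 in the first and 91.1 in the second sample of prp8-N1869D, and 134 in PRP8-WT. The second prp8-N1869D sample was thus the highest of all samples for EPT1 and the lowest for PAL2.

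HNT2, a dinucleoside triphosphate hydrolase gene, and APS3, which encodes the small subunit of the AP-3 adaptor complex, came next. HNT2 had 95.1 mirror-image reads per 100 annotated reads in prp8-V1860N, 87.98 in prp8-V1870N, 94.4 in prp8-V1860D, 82.3 in the first and 74.2 in the second sample of prp8-N1869D, and 91.99 in PRP8-WT. APS3 had 68.9 in prp8-V1860D, 65.3 in the second and 56.3 in the first sample of prp8-N1869D, 62.8 in prp8-V1870N, 61.5 in prp8-V1860N and 66.1 in PRP8-WT. After these 4 introns there was a gap down to RPS21B at 27.6 over all libraries, RPS23A at 27.5, SIM1 at 23.04 and the second intron of SUS1 at 22.4. RPS23A was the steadiest of those with many reads, between 26.8 and 28.4 in the mutant samples and at 27.3 in PRP8-WT.

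In the 4 highest introns the reads were placed mainly at +3 and +3. That pair held 55.9% of the mirror-image reads of EPT1 (5229 reads), 81.2% of PAL2, 91.9% of HNT2 and 83.4% of APS3. In RPS23A the leading pairs were 0 and +1 with 41.3% and +3 and +1 with 39.3%, and in snR17a +3 and +1 with 62.9%. The exons of EPT1 and PAL2 end in TAA, the same 3 bases that end at the branch point in TACTAAC, as the TTA in capitals on both sides of EPT1 shows. A junction between such ends therefore reads the same whether it is listed at +3 and +3 or at 0 and 0. For EPT1 5229 reads were listed at +3 and +3, where the mirror intron begins with GT, and 2 at 0 and 0. The exons of HNT2 and APS3 end in TAT. TAD3 intron 1, with AACTAAC, was the only other intron with TAA at both places, and it had 9 annotated reads.

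**Figure D4:**
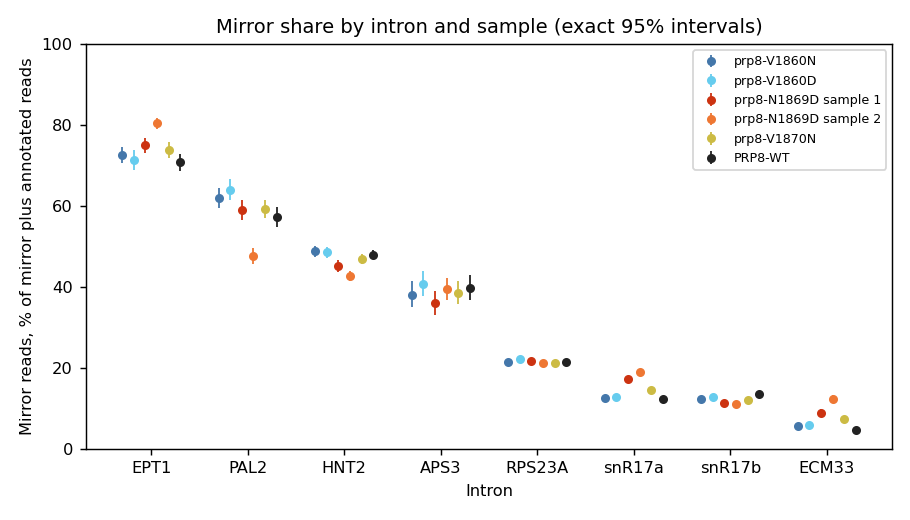
Mirror-image reads as a percentage of mirror-image plus annotated reads (y axis) in 8 introns (x axis), with exact 95% intervals for counting error, from prp8-V1860N at the left to PRP8-WT at the right of each set. EPT1 lies between 70.7% in PRP8-WT and 80.5% in the second prp8-N1869D sample, RPS23A is level across samples, and both prp8-N1869D samples lie highest for snR17a and ECM33.

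The level differed between introns by the base that precedes the annotated 5' splice site, a grouping chosen after the values were seen. Among the 198 introns with the branch site TACTAAC and at least 1000 annotated reads, the median was 9.16 per 100 over 57 introns whose exon ends in A and 8.03 over 33 ending in T. It was 2.16 over 26 introns whose exon ends in C and 2.75 over 82 ending in G. Of the 90 introns with A or T, 77 lay above the median of the 198, which was 4.65, and of the 108 with C or G, 22 did. The median of the A or T introns was the higher one in 7 of 7 libraries. These are the libraries on which the grouping was chosen, and 2 of them are technical libraries of 1 sample. The count is therefore not independent support. The base in question is the complement of the most used mirror branch point, at +1. No test was made of this grouping.

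**Figure D5:**
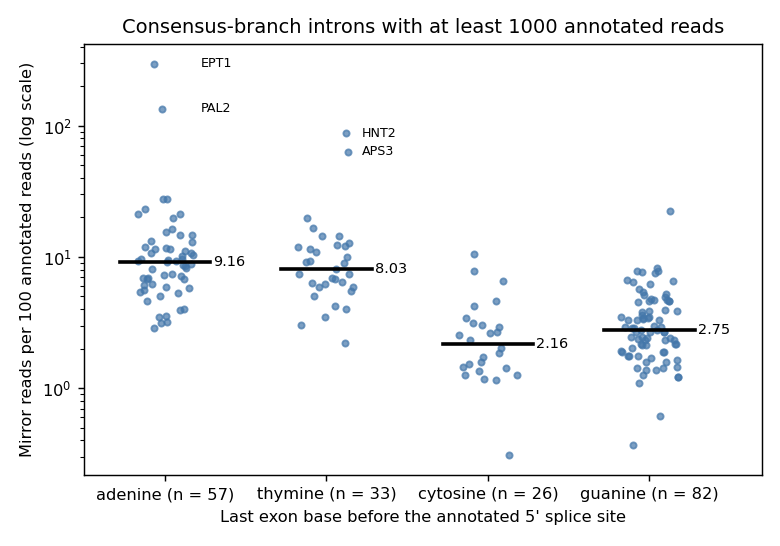
Mirror-image reads per 100 annotated reads (log scale) of 198 introns with the consensus branch site and at least 1000 annotated reads, by the last exon base, with 1 point per intron and bars at the medians. The medians are 9.16 for adenine, 8.03 for thymine, 2.16 for cytosine and 2.75 for guanine, and the 4 highest introns end in adenine or thymine.

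The branch site itself also separated introns, again seen before it was described. Over all 230 introns with TACTAAC, mirror images were 6.52 per 100 annotated reads, with 3.29 at the 5' splice site offset 0 and 3.02 at +3. In 32 introns with A, C or G in place of the first T of TACTAAC, the level was 9.43 per 100, but 0.0569 at offset 0 and 8.81 at +3. The intron of snR17a, with GACTAAC, held 95099 of the 140243 mirror-image reads of this group, and the median over the 20 of them with at least 1000 annotated reads was 3.92. In snR17a 253 mirror-image reads began at offset 0 and 87394 at +3. The 2 introns with TACTGAC had 18.1 per 100, almost all from the first intron of SUS1, a gene of the SAGA and TREX-2 complexes.

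In the 11 introns whose branch site differs at base 2 or 3, so that no GT stands at +3 on the mirror strand, few or no mirror-image reads were found. The 7 introns with ATTAAC from base 2 of the branch site had 1 mirror-image read for 4640 annotated reads, or 0.0216 per 100, and 6 of the 7 had none. The 4 introns with TGCTAA in place of TACTAA, in RPL7A, RPL7B, SRB2 and PTC7, had 25 for 36459, or 0.0686 per 100. At the 5' splice site offset 0 these 4 introns had 0.0274 per 100, against 3.29 in the introns with TACTAAC. The 3 introns with TACTAAT, which keep the GT at +3, were low as well, with 197 for 32839, or 0.600 per 100. Whether the missing GT accounts for the low levels was not tested. RPL7A and RPL7B encode the same large-subunit ribosomal protein, and each has 2 introns. RPL7B intron 1 had 0 mirror-image reads for 3856 annotated reads in prp8-V1860N, 1 for 3559 in prp8-V1870N, 3 for 4047 in prp8-V1860D, 1 for 2244 in the first and 0 for 1838 in the second sample of prp8-N1869D, and 2 for 6394 in PRP8-WT. The second intron of RPL7A, with TACTAAC, had 575 for 7161, or 8.03 per 100, whereas the first had 9 for 12140, or 0.0741. The second intron of RPL7B, also with TACTAAC, had 12 for 406, or 2.96 per 100. The introns of RPL7A thus differed in level within 1 gene. So did those of VMA9, at 19.8 and 1.44 per 100, although both have TACTAAC. In NOG2 and the second intron of HMRA1 the annotated branch point is 1 base off the usual place in the box, so AC is also missing 4 and 3 nt before it. NOG2, a gene of ribosome assembly, had 363 mirror-image reads for 2661 annotated reads, or 13.6 per 100, with 330 of them at a 5' splice site offset of +4. HMRA1 intron 2 had 2 for 306, both at +2.

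The 12 introns without a mirror-image read had 3433 annotated reads together. CIN2, a tubulin folding factor gene, had 0 mirror-image reads for 1164 annotated reads, which allows up to 0.258 per 100 by a limit of 3 counts. RCF3 had 0 for 843 (up to 0.356), and MOB1, a gene of the mitotic exit network, had 0 for 812 (up to 0.369). ERV1, a sulfhydryl oxidase of mitochondria, had 0 for 372 (up to 0.806) and MRX20 had 0 for 148 (up to 2.03). These 5 introns all have ATTAAC from base 2 of the branch site. CMC4, with CACTAAC, had 0 for 69 (up to 4.35). All 6 limits lie below the median of 4.53, that of CMC4 only just. The other 6 introns, SAE3, SPO1, HFM1, MEI4, SPO22 and MMS2, had fewer than 10 annotated reads. Other low introns with TACTAAC were RPO26, a shared RNA polymerase subunit gene, with 10 for 3237 (0.309 per 100), and RIM1, a mitochondrial single-stranded DNA binding protein gene, with 22 for 5926 (0.371). HRB1, a poly(A) RNA binding protein gene with the branch site TACTAAT, had 83 for 23832 (0.348).

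Paralogous ribosomal protein genes did not always share a level; these pairs were picked after their values were seen. RPS23A had 27.5 per 100 and RPS23B 5.44, although both have an exon ending in CAA and the branch site TACTAAC. RPS21B, with TACTAAC, had 27.6 and RPS21A, with AACTAAC, 4.44, and both exons end in TTA. RPL17B and RPL17A were closer, at 14.6 and 10.8, and RPS30B and RPS30A were at 6.55 and 6.44 over all libraries pooled. By sample, RPS30B and RPS30A had 10.09 and 12.2 in the second prp8-N1869D sample, and 5.60 and 4.62 in PRP8-WT. How reads that match both copies of a gene were placed is not given in the sources used here.

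Some introns with few annotated reads had many mirror images. COX5B, the gene of a cytochrome c oxidase subunit used at low oxygen, had 568 mirror-image reads and 1 annotated read. The annotated 5' splice site of this intron is the only one of the 280 that does not begin with GT, and 1211 same-strand reads were listed at +4 and +4. Against the 1476 same-strand reads within 10 nt the level was 38.5 per 100. Its leading mirror pair lay at +3 and +3 with 205 reads. IWR1, a factor for nuclear import of RNA polymerase II, had 113 mirror-image reads for 88 annotated reads, of which 111 lay at +3 and +3, and its exon ends in TAT like those of HNT2 and APS3.

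Of the introns, 221 had 100 or more annotated reads per library. Their median level was 4.87 in the first and 4.36 in the second sample of prp8-N1869D, 4.81 in prp8-V1870N, 4.47 in prp8-V1860D, 4.38 in prp8-V1860N and 4.498 in PRP8-WT. The first prp8-N1869D sample had the highest and the second the lowest median, so no strain stood apart by this measure. The introns kept nearly the same order: the Spearman correlation of the level with PRP8-WT was 0.978 for prp8-V1860D, 0.972 for prp8-V1860N, 0.971 for prp8-V1870N and 0.967 and 0.955 for the samples of prp8-N1869D. It was 0.973 between both prp8-N1869D samples and 0.954 between the technical libraries of the second.

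Few introns had a level past 2-fold of PRP8-WT, computed with 0.5 reads added and for introns with at least 20 mirror-image reads over both libraries. In prp8-V1860N 3 of 218 introns were higher (1.38%) and 3 lower (1.38%), and in prp8-V1860D 2 of 218 higher (0.917%) and 1 lower (0.459%). In the first prp8-N1869D sample 3 of 217 were higher (1.38%) and 2 lower (0.922%), in the second 6 of 220 higher (2.73%) and 2 lower (0.909%). In prp8-V1870N 1 of 219 was higher (0.457%) and 1 lower (0.457%). Between the samples of prp8-N1869D, second over first, 1 of 212 was higher (0.472%) and 2 lower (0.943%), and between the technical libraries 0 of 190 were higher (0%) and 2 lower (1.05%). Libraries of 1 strain thus gave at most 1 higher and 2 lower introns, and mutants over PRP8-WT at most 6 higher and 3 lower. No intron passed in every mutant sample. ECM33 and RPS30A were higher and UBC13 lower in both prp8-N1869D samples.

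ECM33, a cell wall protein gene, had 433 mirror-image reads for 4403 annotated reads in the first and 746 for 5270 in the second sample of prp8-N1869D, against 1353 for 27782 in PRP8-WT. Its level was 9.83 and 14.2 per 100 in these prp8-N1869D samples, 7.997 in prp8-V1870N, 6.15 in prp8-V1860D, 5.92 in prp8-V1860N and 4.87 in PRP8-WT. All mutant samples lay above PRP8-WT, with log2 ratios of 1.01 and 1.54 in the prp8-N1869D samples, but the technical libraries of the second sample gave 11.03 and 16.9. The libraries held 1222720 and 1366461 lariat reads in prp8-N1869D and 3517283 in PRP8-WT. Annotated reads of ECM33 were thus a smaller part of all lariat reads in both prp8-N1869D samples than in PRP8-WT. Mirror-image reads of ECM33 were a larger part in the second prp8-N1869D sample but not in the first. RPS30A, a small-subunit ribosomal protein gene, had 9.23 and 12.2 per 100 in prp8-N1869D, 7.65 in prp8-V1870N, 6.41 in prp8-V1860D, 5.54 in prp8-V1860N and 4.62 in PRP8-WT. UBC13, a ubiquitin-conjugating enzyme gene, had 9 mirror-image reads for 333 annotated reads and 5 for 319 in prp8-N1869D, against 25 for 428 in PRP8-WT. It also lay past 2-fold lower in prp8-V1860N, with 10 for 353. Its level was 2.70 and 1.57 per 100 in prp8-N1869D, 4.72 in prp8-V1860D, 2.83 in prp8-V1860N, 6.27 in prp8-V1870N and 5.84 in PRP8-WT.

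Judged by counting error alone, exact 95% intervals of the mirror share lay apart from those of PRP8-WT in more introns. Higher shares with intervals apart were found for 26 introns (12%) in the first and 30 (13.6%) in the second sample of prp8-N1869D, 20 (9.13%) in prp8-V1870N, 13 (5.96%) in prp8-V1860D and 12 (5.5%) in prp8-V1860N. Lower ones numbered 10 (4.61%) in the first and 18 (8.18%) in the second sample of prp8-N1869D, 5 (2.28%) in prp8-V1870N, 8 (3.67%) in prp8-V1860D and 4 (1.83%) in prp8-V1860N. Between the prp8-N1869D samples, second over first, 8 (3.77%) were higher and 5 (2.36%) lower, and between the technical libraries 8 (4.21%) and 5 (2.63%). Intervals are narrower with more reads, and PRP8-WT had the most reads. Counts within prp8-N1869D and counts over PRP8-WT were therefore not made at equal depth.

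The U3 intron snR17a, which alone held 13.1% of all mirror-image reads, differed more between strains than the sum over introns did. It had 18013 mirror-image reads for 124192 annotated reads in prp8-V1860N, 12159 for 72156 in prp8-V1870N, 14110 for 95769 in prp8-V1860D, 11493 for 54793 in the first and 10779 for 45906 in the second sample of prp8-N1869D, and 28545 for 201818 in PRP8-WT. Per 100 this was 14.7 in prp8-V1860D, 14.5 in prp8-V1860N, 16.9 in prp8-V1870N, 20.98 in the first and 23.5 in the second sample of prp8-N1869D, and 14.1 in PRP8-WT. Both prp8-N1869D samples lay above all other strains, and the technical libraries of the second gave 21.2 and 25.6. Annotated reads of snR17a were a smaller part of all lariat reads in both prp8-N1869D samples than in PRP8-WT. Mirror-image reads of snR17a were a larger part in the first prp8-N1869D sample but not in the second. Its paralog snR17b lay between 12.5 and 14.6 in the mutant samples, lowest in both prp8-N1869D samples, and at 15.6 in PRP8-WT. Without snR17a the summed fold over PRP8-WT was 1.09 in both prp8-N1869D samples.

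The other introns past 2-fold, except RPS9A, had at most 22 mirror-image reads in the mutant sample. DCN1, a scaffold of neddylation, had 19 mirror-image reads for 815 annotated reads in prp8-V1860N, 19 for 1105 in the second prp8-N1869D sample and 15 for 732 in prp8-V1860D, against 6 for 1012 in PRP8-WT. RPS9A, another small-subunit ribosomal protein gene, had 163 for 642 in the second prp8-N1869D sample, against 204 for 2300 in PRP8-WT. Its level there was 25.4 per 100, against 10.7 in the first prp8-N1869D sample and 8.87 in PRP8-WT, so the samples of 1 strain differed more than the first did from PRP8-WT. RPS10B had 22 for 969 in the second prp8-N1869D sample and 52 for 5113 in PRP8-WT, and REC102 13 for 156 and 7 for 174. YSF3, a subunit of the U2-associated SF3b complex, had 20 for 376 in the first prp8-N1869D sample and 12 for 510 in PRP8-WT. HRB1 had 3 for 2291 in that sample and 24 for 6548 in PRP8-WT. SCS22 had 13 for 1550 in prp8-V1860N and 8 for 1166 in the second prp8-N1869D sample, against 45 for 2475 in PRP8-WT. Besides UBC13 in prp8-V1860N, the remaining ones were GCR1, APE2 and PCC1 in the V1860 mutants and MRPL44 and RUB1 in prp8-V1870N, where the mutant had between 5 and 17 mirror-image reads. NCB2, TMH18, YNL050C, MRK1, MTR2, RPL18B and TMA20 were also among the 3 highest or 3 lowest introns of a mutant sample, but within 2-fold of PRP8-WT.

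Pairs outside annotated introns were examined in the same way, for 96 pairs with at least 200 reads, at most 1000 nt between their ends and no end near an annotated intron. Of a pair and its own mirror image, the one listed with more reads was taken as the pair, whereas annotated introns have a fixed strand. The levels of outside pairs and annotated introns are therefore not on the same footing. The mirror images of the outside pairs came to a median of 0.465 per 100 reads, and 36 of the 96 had none. Annotated introns with at least 200 reads had a median of 3.95 over 251 introns, of which 4 had none. The 17 outside pairs that begin with GT and have TACTAAC on their own strand from 8 nt before to 4 nt after the branch position had a median of 7.81 per 100 (1.35 to 70.1), and none was at 0. The other 79 had a median of 0.0944 (0 to 94.9), so the highest outside level lay in this group. The outside pair with the most reads, at chrVII:383486-383552 on the plus strand with the branch site TATTAAC, had 25 mirror-image reads for 55693, or 0.0449 per 100. The pairs in BDF2 and LSB3 followed, with 1867 for 45717 (4.08 per 100) and 2328 for 34232 (6.80).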

How the data were processed

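The authors' deposited table gives counts of filtered lariat reads for every joined 5' splice site and branch point in each library, and a second one gives counts for the annotated introns. In this second table a branch point up to 2 nt away from the annotated position still counted, per the file headers. Per the labels' protocols, ribosomal RNA was removed and RNase R, which degrades linear RNA, was applied before the libraries were made. Per the submitters' processing notes, Trimmomatic, Bowtie2 and build R64 were used, with versions not given in the sources used here. Positions are counted from 1, and 279 of 280 annotated introns began with GT in the R64 reference used here.

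Mirror images were found by the rule given above, and their reads were divided by the annotated reads of the same intron. Groups came from the labels. For 280 of 280 introns the annotated count was the same as the reads of its matching pairs added up, and 270 of 270 loci were matched to gene names. Intervals are exact 95% binomial intervals. As all strains but prp8-N1869D have 1 library, no tests were made. No paired analysis was possible because the groups compared share fewer than 2 replicate numbers. The members, lists and groupings were chosen with earlier results of these data known. Named introns are those with the most mirror-image reads or pairs. Also named are the 8 highest and 8 lowest levels among introns with at least 1000 annotated reads. The 5 most-read introns without mirror images and the 3 highest and 3 lowest ratios per mutant sample were added. So were the 3 most-read outside pairs. Other introns were picked for their values. Python 3.11.15 was used, with scipy 1.17.1, pandas 2.3.3, matplotlib 3.10.9 and numpy 2.4.6, and the steps were tested on simulated data. Alternatives covered the window, denominators, introns left out, weighting, read minima, pseudocounts, thinning and each technical library left out.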

Additional observations from a re-analysis of the deposited data

How the results depend on the processing

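Values per 100 are given for prp8-V1860N, prp8-V1860D, the first and second prp8-N1869D sample, prp8-V1870N and PRP8-WT in that order, and folds over PRP8-WT for the mutant samples in the same order; the cause of each shift was not tested. With both ends exact the level was 0.0398, 0.0356, 0.0490, 0.0284, 0.0506 and 0.0461, and the folds were 0.864, 0.773, 1.06, 0.616 and 1.10. Within 2 nt it was 2.96, 3.02, 3.09, 3.22, 3.04 and 2.84 (folds 1.04, 1.06, 1.09, 1.13 and 1.07), and within 20 nt 6.89, 6.84, 7.53, 7.46, 7.05 and 6.74. With mirror-image plus annotated reads as denominator it was 6.38, 6.33, 6.94, 6.88, 6.53 and 6.25 (folds 1.11 and 1.10 in prp8-N1869D). With all lariat reads it was 5.81, 5.73, 6.06, 5.98, 5.60 and 5.76 (folds 1.01, 0.994, 1.05, 1.04 and 0.972). Without the 5 introns with the most mirror-image reads it was 5.63, 5.55, 5.83, 5.79, 5.76 and 5.44 (folds 1.03, 1.07, 1.06 and 1.06 for all but prp8-V1860D). Pairs with at least 5 reads gave 7.41 in the first prp8-N1869D sample. Ribosomal protein introns alone gave folds of 1.01, 1.05 and 1.06 in the first 3 mutant samples and 1.06 in prp8-V1870N, and introns of other genes 1.04, 0.956, 1.14, 1.05 and 0.998. Leaving out 1 technical library gave 7.12 to 7.69 in the second prp8-N1869D sample, a fold of 1.07 to 1.15.

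Other alternatives were chosen after seeing the data. Without the 4 highest introns the level was 6.54, 6.52, 6.99, 6.81, 6.63 and 6.46 (folds 1.01, 1.08, 1.05 and 1.03 for all but prp8-V1860D). Without snR17a it was 6.29, 6.32, 6.67, 6.69, 6.50 and 6.13 (folds 1.03, 1.09, 1.09 and 1.06 for all but prp8-V1860N). Over same-strand reads within 10 nt of both ends it was 6.69, 6.64, 7.31, 7.27, 6.85 and 6.55. Weighted by PRP8-WT annotated reads it was 7.66 in the second prp8-N1869D sample and 7.05 in prp8-V1870N (folds 1.15 and 1.06).

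With at least 50 reads, introns past 2-fold made up 0.505% in prp8-V1860N, 0% in prp8-V1860D, 1.04% in the first prp8-N1869D sample and 0% in prp8-V1870N, and with no pseudocount 1.83% in prp8-V1870N. With a minimum of 10 annotated reads per library, medians over introns were 3.97 in prp8-V1860D, 4.29 in the first prp8-N1869D sample, 4.05 in prp8-V1870N and 3.82 in PRP8-WT. Without the 5 introns with the most mirror-image reads, 46.6% of mirror-image reads had the 5' splice site at 0 and 51.2% at +3. Thinned to 652680 reads, mirror images were expected for between 236 and 247 introns in each sample. Depth limits the introns with few annotated reads, where a count of 0 allows a level above the median.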
